A study of Mus musculus with 10 samples.

Results

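AP-1 is a family of transcription factors built from paired Fos and Jun proteins. The genes examined were the Fos subunit genes Fos, Fosb, Fosl1 and Fosl2 and the Jun subunit genes Jun, Junb and Jund, 7 in all, chosen by name. Each gene was read from its probe set of highest mean over the 10 arrays, among probe sets to which the platform annotation gives exactly 1 symbol. This gave a value for 6 of the 7 genes, out of 22180 genes measured. The only probe set listed for Fosl1 is shared with Ccdc85b, so Fosl1 was not analysed here.

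The cells were mouse embryonic fibroblasts (MEFs), primary cultures of connective tissue cells from the dorsal skin of E13.5 embryos. RNA from 5 Zbtb4 knock-out samples and 5 wild-type samples was hybridised to 1 Affymetrix array each. Zbtb4 is a zinc finger protein known to bind methylated CpG dinucleotides, and the study set out to find the transcripts that depend on it. The labels name neither the deleted part of the gene, the strain, the passage nor any treatment, and do not say that replicates came from separate embryos or cultures, so the p-values cover the spread among these arrays alone. The mean log2 level of 3 Y-linked genes was 5.89 to 6.42 on knock-out arrays 1 and 3 and 6.18 to 6.26 on wild-type arrays 1 and 3. It was 2.49 to 2.69 on the other knock-out arrays and 2.52 to 2.78 on the other wild-type arrays, so the arrays of each genotype were not all repeats of 1 embryo's cells.

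Fos and Jun proteins carry a basic region that contacts DNA and a leucine zipper through which they pair. Jun proteins pair with each other or with Fos proteins, whereas Fos proteins need a partner of another family. In fibroblasts, serum and growth factors switch on Fos, Fosb, Jun and Junb within minutes as immediate early genes, while Jund is known for a steadier level in resting cells. How recently cells were fed, handled or stimulated before lysis is therefore known to set the level of these transcripts, and the labels do not give it.

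The promoters of Fos, Fosb and Jun are shown because Fos and Fosb gave the highest correlation between members over the arrays and Jun the smallest p-value between genotypes. The sequences are from RefSeq on GRCm38.p6, run 5′ to 3′ on the gene's strand and cover 250 bases before to 50 bases after the gene start. They lie at chr12:85473640-85473939 (Fos, plus strand), chr7:19309996-19310295 (Fosb, minus strand) and chr4:95052173-95052472 (Jun, minus strand). Capitals mark TGACG, the core of the cAMP response element, and TGACATCA, a variant of the AP-1 site through which Jun is known to act on its own gene.
Fos promoter: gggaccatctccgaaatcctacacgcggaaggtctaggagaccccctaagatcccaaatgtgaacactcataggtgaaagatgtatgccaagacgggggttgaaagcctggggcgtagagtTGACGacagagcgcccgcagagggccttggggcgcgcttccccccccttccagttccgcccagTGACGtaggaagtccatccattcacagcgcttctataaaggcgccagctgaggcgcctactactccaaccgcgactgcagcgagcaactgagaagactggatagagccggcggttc
Fosb promoter: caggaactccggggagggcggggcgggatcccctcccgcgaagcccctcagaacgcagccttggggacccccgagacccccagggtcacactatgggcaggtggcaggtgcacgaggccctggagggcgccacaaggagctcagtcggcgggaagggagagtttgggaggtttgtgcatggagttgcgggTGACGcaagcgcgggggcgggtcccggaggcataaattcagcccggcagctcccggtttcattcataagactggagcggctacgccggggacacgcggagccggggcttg
Jun promoter: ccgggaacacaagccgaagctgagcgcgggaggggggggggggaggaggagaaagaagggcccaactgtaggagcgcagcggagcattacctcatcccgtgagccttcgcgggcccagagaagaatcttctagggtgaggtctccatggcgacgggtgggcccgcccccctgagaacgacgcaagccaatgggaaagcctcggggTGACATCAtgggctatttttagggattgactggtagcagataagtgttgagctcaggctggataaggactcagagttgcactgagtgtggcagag

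Of the 7 genes, 6 had an entry in the promoter table. TGACG was found 129 and 66 bases before the start of Fos, 60 before that of Fosb and 106 before that of Junb. Jun held TGACATCA 45 bases before its start. None of the 6 windows held the AP-1 site TGANTCA, the full cAMP response element TGACGTCA or a CArG box, the motif bound by serum response factor. The serum response element of Fos is known to lie upstream of this window. Both strands were searched, and matches of TGACG inside TGACGTCA were counted. Over 32851 RefSeq promoters of the same length, TGACG occurred in 20.8%, TGACATCA in 3.62%, TGANTCA in 7.81%, TGACGTCA in 1.79% and a CArG box in 1.63%. CpG dinucleotides, the sites of DNA methylation, numbered 20 in the Fos window, 25 in Fosb, 32 in Fosl2, 15 in Jun, 21 in Junb and 3 in Jund, against a median of 7 over all promoters. Of all promoters, 73.5% held fewer CpG than the Fos window, 81.6% than Fosb, 90.5% than Fosl2, 65.4% than Jun, 75.2% than Junb and 23.3% than Jund. These are features of the reference sequence at the annotated gene starts. Neither the starts used in these cells nor methylation was measured.

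The targeted gene was examined first. Zbtb4 had log2 values of 5.44, 5.76, 5.04, 5.62 and 5.39 on knock-out arrays 1 to 5, against 6.06, 6.03, 5.94, 6.23 and 6.11 on wild-type arrays 1 to 5. The genotypes did not overlap, with a log2 difference of -0.62 (SE 0.12), knock-out minus wild type. The exact permutation p was 0.00794, the smallest that 5 against 5 arrays allow, and limma gave an adjusted p of 0.628 over all genes. Since the deleted part is not named, this signal is no measure of the intact transcript.

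No AP-1 gene differed between genotypes beyond the spread of the arrays. In the limma fit over 22180 genes, 0 of the 6 AP-1 genes had an adjusted p under 0.05, against 0% of all genes. At an unadjusted p under 0.05 there were again 0 of 6, against 5.98% of all genes. This count rested on single arrays: without knock-out array 1 it was 2 of 6 (Fos and Jun), against 7.82% of all genes, and without wild-type array 1 it was 1 of 6 (Jun), against 5.67%. The arrays of both genotypes overlapped for each of the 6, where 0.987% of all genes showed no overlap. The mean was lower in knock-out cells for 5 of the 6 genes (Fos, Fosb, Jun, Junb and Jund) and higher for Fosl2, while 49.3% of all genes had a lower mean. The median log2 difference of the 6 was -0.11, against 0.0020 over all genes.

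**Figure D1:**
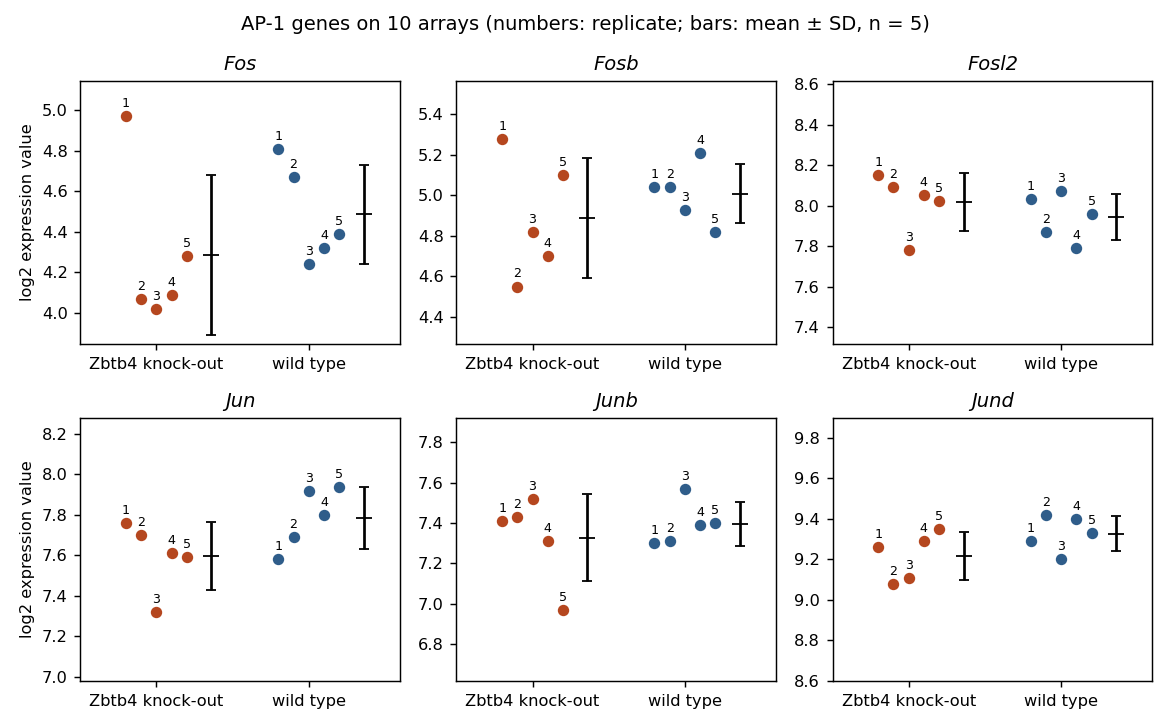
Log2 expression value (y axis, with a range of equal length in each panel) of 6 AP-1 genes on 5 Zbtb4 knock-out arrays (left, orange) and 5 wild-type arrays (right, blue). Each point is an array with its replicate number, and bars give the mean ± SD (n = 5). The genotypes overlap in every panel, Fos on knock-out array 1 lies at 4.97 above the other knock-out arrays, and Junb on knock-out array 5 lies lowest at 6.97.

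Fos, the founding member of its family and a textbook immediate early gene on chromosome 12, varied most. It had log2 values of 4.97, 4.07, 4.02, 4.09 and 4.28 on knock-out arrays 1 to 5, against 4.81, 4.67, 4.24, 4.32 and 4.39 on wild-type arrays 1 to 5. Knock-out array 1 was the highest of all 10, while 3 of the other knock-out arrays lay below every wild-type array. The mean was 4.29 ± 0.40 in knock-out MEFs, against 4.49 ± 0.24 in wild-type MEFs (SD, n = 5 per genotype). The log2 difference was -0.20 with a 95% interval from -0.58 to 0.17 (limma adjusted p = 0.877; exact permutation p = 0.341). Without knock-out array 1 the difference was -0.37, with a limma p of 0.00959 and an adjusted p of 0.589. The pooled SD within genotypes, 0.33, was larger than that of 95.3% of all genes. On 5 of the 10 arrays Fos lay below the median of all genes, and no background level came with the values, so how much of this signal is Fos transcript is not known.

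Fosb encodes a close relative of Fos and lies on chromosome 7. Its log2 values were 5.28, 4.55, 4.82, 4.70 and 5.10 on knock-out arrays 1 to 5, against 5.04, 5.04, 4.93, 5.21 and 4.82 on wild-type arrays 1 to 5. Knock-out array 1 was again the highest of all, and knock-out arrays 2 and 4 were the lowest. The mean was 4.89 ± 0.30 in knock-out MEFs, against 5.01 ± 0.14 in wild-type MEFs (SD, n = 5 per genotype), a log2 difference of -0.12 with a 95% interval from -0.40 to 0.16 (limma adjusted p = 0.904). Leaving out knock-out array 2 brought it to -0.034, and leaving out knock-out array 1 brought it to -0.21.

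Fosl2 encodes Fra-2, a Fos family protein without the strong activation domain of Fos, and lies on chromosome 5. Its values were 8.15, 8.09, 7.78, 8.05 and 8.02 on the knock-out arrays, against 8.03, 7.87, 8.07, 7.79 and 7.96 on the wild-type arrays. Knock-out array 3 and wild-type array 4 were lowest, knock-out arrays 1 and 2 were highest, and the genotypes overlapped. The mean was 8.02 ± 0.14 in knock-out MEFs, against 7.94 ± 0.11 in wild-type MEFs (SD, n = 5 per genotype). The log2 difference of 0.077 had a 95% interval from -0.11 to 0.27 (limma adjusted p = 0.907).

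Jun, on chromosome 4, encodes the subunit that pairs with all Fos proteins and binds its own promoter. It had log2 values of 7.76, 7.70, 7.32, 7.61 and 7.59 on knock-out arrays 1 to 5, against 7.58, 7.69, 7.92, 7.80 and 7.94 on wild-type arrays 1 to 5. The highest 3 arrays were wild type and the lowest was knock-out array 3, but wild-type arrays 1 and 2 lay among the knock-out arrays. The mean was 7.60 ± 0.17 in knock-out MEFs, against 7.79 ± 0.15 in wild-type MEFs (SD, n = 5 per genotype). The log2 difference of -0.19 had the smallest p of the family, with a 95% interval from -0.41 to 0.028 (limma p = 0.0818, adjusted p = 0.840; exact permutation p = 0.111). It was -0.12 without knock-out array 3. The limma p was 0.0489 without knock-out array 1 (adjusted p = 0.638) and 0.0353 without wild-type array 1 (adjusted p = 0.869).

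Junb and Jund both lie on chromosome 8 and differ in kind, since Junb is induced by serum and can restrain Jun, while Jund is known to slow fibroblast growth. Junb had log2 values of 7.41, 7.43, 7.52, 7.31 and 6.97 on the knock-out arrays, against 7.30, 7.31, 7.57, 7.39 and 7.40 on the wild-type arrays. Apart from knock-out array 5, the genotypes covered nearly the same range. The mean was 7.33 ± 0.22 in knock-out MEFs, against 7.39 ± 0.11 in wild-type MEFs (SD, n = 5 per genotype), a log2 difference of -0.065 with a 95% interval from -0.29 to 0.16 (limma adjusted p = 0.939). The sign turned without knock-out array 5, to 0.026. The mean deviation of 10 macrophage markers was also highest on knock-out array 3 (0.77), where Junb was highest among the knock-out arrays, and lowest on knock-out array 5 (-0.53). Other arrays did not follow this order. Wild-type array 3 had the highest Junb of all 10 arrays (7.57) and the lowest marker level of the wild-type arrays (-0.24). Knock-out array 2, with Junb at 7.43, had a marker level of -0.19. Over the knock-out arrays this marker level ran from -0.53 to 0.77 and over the wild-type arrays from -0.24 to 0.12, no marker was listed at 0, and its part in the Junb values was not tested. In such bulk samples, fewer cells of a type and less RNA per cell cannot be told apart.

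Jund was the steadiest member, with a pooled SD of 0.10 that was larger than that of 15.5% of all genes. Its values were 9.26, 9.08, 9.11, 9.29 and 9.35 on the knock-out arrays, against 9.29, 9.42, 9.20, 9.40 and 9.33 on the wild-type arrays. Knock-out arrays 2 and 3 lay below every wild-type array and the others overlapped. The mean was 9.22 ± 0.12 in knock-out MEFs, against 9.33 ± 0.090 in wild-type MEFs (SD, n = 5 per genotype). The log2 difference was -0.11 with a 95% interval from -0.28 to 0.063 (limma adjusted p = 0.857; exact permutation p = 0.151). A further probe set of Jund, 17502001, did not repeat the sign. It averaged 6.78 ± 0.15 in knock-out MEFs, against 6.76 ± 0.095 in wild-type MEFs (SD, n = 5 per genotype), a log2 difference of 0.021 (exact permutation p = 0.794), so a direction for Jund depends on the probe set.

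The intervals show what sizes of change the arrays leave possible, although they are not adjusted for the number of genes. The knock-out level relative to wild type could lie between 0.671 and 1.13 for Fos, 0.758 and 1.12 for Fosb and 0.925 and 1.20 for Fosl2. For Jun the range was 0.754 to 1.02, for Junb 0.819 to 1.12 and for Jund 0.822 to 1.04. An adjusted p above the threshold does not show that the genotypes had equal levels.

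**Figure D2:**
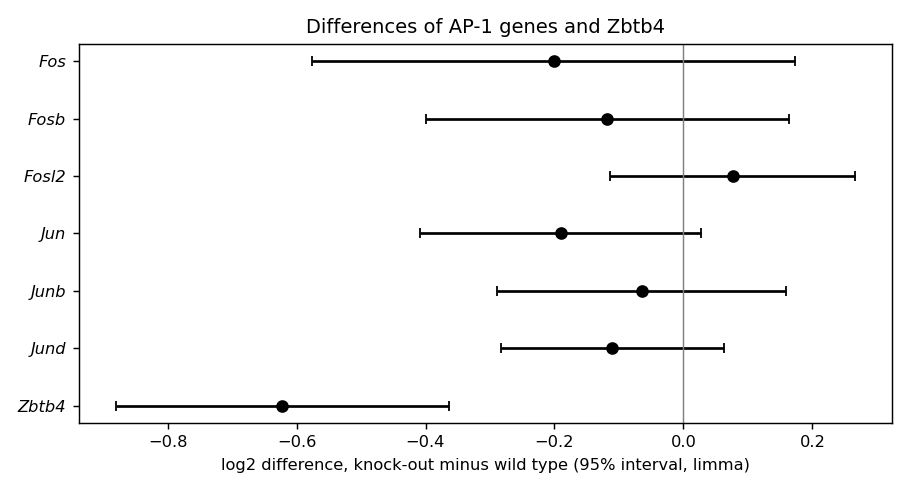
Log2 difference, knock-out minus wild type (x axis), of 6 AP-1 genes and Zbtb4, with 95% intervals from the limma fit (5 arrays per genotype). Every AP-1 interval includes 0, and that of Zbtb4 runs from -0.88 to -0.36.

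How the members varied with each other was examined over the 10 arrays, for 15 pairs. No pair passed after Benjamini-Hochberg adjustment over the 15. Unadjusted permutation p-values under 0.05 numbered 1 by Pearson's r and 2 by Spearman's rho. Fos and Fosb had r = 0.70 (permutation p = 0.0233, adjusted 0.349) and rho = 0.75 (p = 0.0165, adjusted 0.175). Without knock-out array 1 and wild-type array 1, the arrays farthest from the Fos median, r was 0.59 (permutation p = 0.123). For deviations from the genotype means r was 0.68 (permutation p = 0.0300, adjusted 0.225). Junb and Jund ran in opposite directions, with r = -0.52 (permutation p = 0.123, adjusted 0.615) and rho = -0.72 (p = 0.0233, adjusted 0.175). Without knock-out array 5 and wild-type array 3, r was -0.67 (permutation p = 0.0687), and for deviations from the genotype means it was -0.74 (permutation p = 0.00796, adjusted 0.119). This direction belongs to the brighter Jund probe set: Junb against probe set 17502001 gave r = 0.32 (permutation p = 0.398) and rho = 0.26 (p = 0.469), and the Jund probe sets correlated with each other at r = 0.14. The other pairs had r between -0.27 and 0.62, the highest for Fosb with Jund (permutation p = 0.0600, adjusted 0.450).

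**Figure D3:**
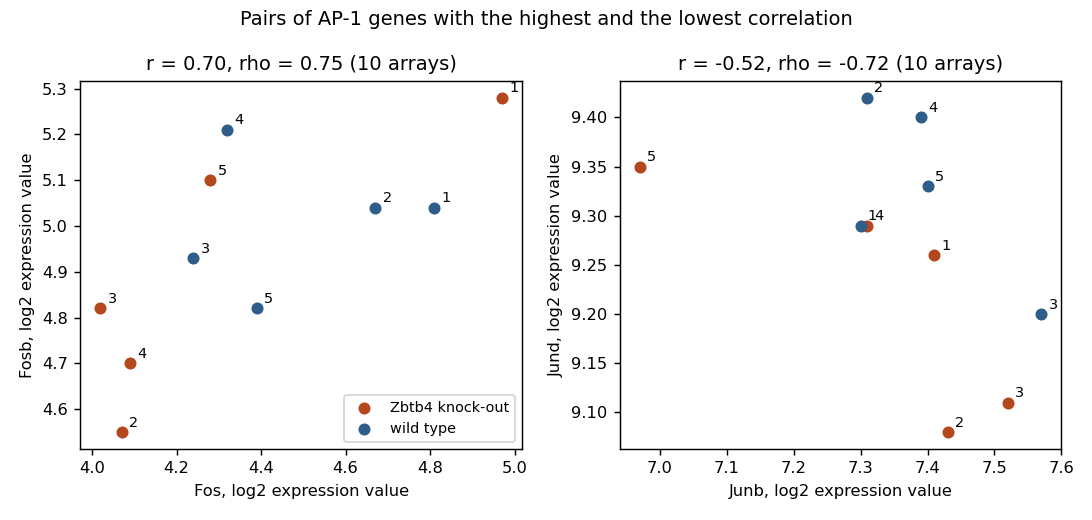
Log2 values of Fos against Fosb (left) and Junb against Jund (right) on 10 arrays, with replicate numbers, knock-out in orange and wild type in blue. The arrays rise together on the left (r = 0.70) and run in opposite directions on the right (r = -0.52), where the further Jund probe set gave r = 0.32. Neither pair passed after adjustment.

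Averaged over the 6 genes as deviations from each gene's mean, the knock-out arrays stood at 0.20, -0.12, -0.18, -0.096 and -0.056 for replicates 1 to 5, against 0.068, 0.061, 0.048, 0.044 and 0.033 for the wild-type arrays. The wild-type arrays thus lay close together, with knock-out array 1 above and the other knock-out arrays below them. This pattern was noticed in the values and the unequal spread was not tested.

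Of the AP-1 genes, Junb had the highest median correlation with other early genes. Its r over the 10 arrays was positive with 12 of 13 early genes, with a median of 0.43, against a median of 0.028 over all genes. The highest were Ccn1, which encodes a secreted matrix protein, at 0.65, Egr3 at 0.63 and Ier3 at 0.62. Fos had a median of 0.15 over the same 13 genes, with the highest, 0.62, for Egr1, the zinc finger factor induced beside it by serum. Jun had a median of 0.24, with the highest, 0.74, for Nr4a1, an orphan nuclear receptor gene. Jund was positive with 4 of 13 and had a median of -0.18. All these coefficients share the same 10 arrays and are given as descriptions. Both Junb (6.97) and the mean deviation of the 13 early genes (-0.16) were lowest on knock-out array 5, and r without that array was not computed.

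The genes whose pattern over the 10 arrays was most like each member were sought among 10365 genes, those above the median level less the AP-1 genes and gene models, micro RNAs and other entries without a proper symbol. For Fos they were Gli2, a transcription factor of the Hedgehog pathway (r = 0.98), Clec11a (0.93) and Kptn (0.93). For Fosb they were Tmem138 (0.93), Fuom (0.92) and Acan, which encodes the cartilage proteoglycan aggrecan (0.91). Fosl2 was most like Sdha, a subunit gene of respiratory complex II (0.94), Sel1l (0.94) and Mgat5 (0.94). Jun was most like Dcun1d3 (0.92), the G protein subunit gene Gnb1 (0.91) and Mier3 (0.91). Junb was most like Etnk1 (0.96), Glipr2 (0.95) and Map4k5 (0.94), and Jund most like St8sia2 (0.94), Nprl3 (0.94) and Lgals8 (0.89). No gene was named for more than 1 member. The coefficients were picked as the highest of many, so no p is given.

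The wider AP-1 pathway was described through 7 gene lists with 90 entries, of which 79 were measured. The list medians below were small and moved with single arrays, and those of the Fos promoter factors and the AP-1 protein regulators changed sign. None of the 79 genes passed the adjusted threshold, against 0% of all genes, and the smallest adjusted p was 0.821. None had genotypes that did not overlap, where 0.987% of all genes showed no overlap. At an unadjusted p under 0.05 there were 6, or 7.59%, 3 of them higher and 3 lower in knock-out MEFs, against 3.25% higher and 2.73% lower among all genes. Means were higher for 34 and lower for 45, where 49.3% of all genes had a lower mean.

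Partners that share the basic leucine zipper numbered 14 measured of 15, with 9 higher, 5 lower and a median log2 difference of 0.055. Batf3, an AP-1 partner known from dendritic cells, had 3.64 ± 0.15 in knock-out MEFs, against 3.36 ± 0.21 in wild-type MEFs (SD, n = 5 per genotype), a difference of 0.29 (limma adjusted p = 0.821). Nrl, a retinal Maf factor, differed by 0.14 and Batf by 0.13. Atf4, the factor of the amino acid response, differed by -0.094. Batf3 and Batf had means below the median of all genes, and no background level is given for them.

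Kinases that relay growth factor and stress signals to AP-1 numbered 11 measured of 16, with 3 higher, 8 lower and a median of -0.066. The Jnk gene Mapk10 differed by 0.12, the Jnk activator gene Map2k4 by 0.084, the p38 gene Mapk14 by -0.10 and the Erk5 gene Mapk7 by -0.082, with limma adjusted p-values from 0.850 to 0.891. Mapk10 averaged 2.91 on knock-out arrays and 2.79 on wild-type arrays and lay below the median of all genes. Among 8 phosphatases that switch these kinases off, 2 were higher and 6 lower, with a median of -0.049. Dusp1, itself an early gene, had values of 7.91, 8.27, 7.88, 8.05 and 8.10 on knock-out arrays 1 to 5, against 7.69, 7.41, 8.13, 7.78 and 7.86 on wild-type arrays 1 to 5. All knock-out arrays exceeded 4 of the 5 wild-type arrays, and wild-type array 3 overlapped them. The difference was 0.27 (limma p = 0.0494, adjusted p = 0.831; exact permutation p = 0.0873). Dusp16 differed by -0.19, Dusp5 by -0.19 and Dusp8 by -0.12.

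Factors that act on the Fos promoter gave 8 measured of 9, with 2 higher, 6 lower and a median of -0.023. Srf, the serum response factor, differed by -0.16, Creb1, which binds the cAMP response element, by -0.14, and the Srf partner genes Elk4 and Elk3 by -0.084 and -0.034. Regulators of AP-1 protein stability gave 5 measured of 6, with 2 higher, 3 lower and a median of -0.020. Det1, part of a ubiquitin ligase for Jun, differed by -0.12, the ligase gene Itch by -0.12, the ligase subunit gene Fbxw7 by 0.11 and the signalosome gene Cops5 by 0.068. None of these 8 named genes had an adjusted p under 0.05.

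Target genes of AP-1 gave 20 measured of 23, with 12 higher, 8 lower and a median of 0.024. Il6, a cytokine gene with AP-1 sites in its promoter, had values of 3.24, 3.17, 3.21, 3.37 and 3.26 on the knock-out arrays, against 3.85, 3.74, 3.77, 3.45 and 3.17 on the wild-type arrays. Of the wild-type arrays 4 lay above every knock-out array, and wild-type array 5 was level with the lowest knock-out array. The difference was -0.35 (limma p = 0.0119, adjusted p = 0.821; exact permutation p = 0.0556), at a level below the median of all genes. Mmp10, which encodes stromelysin-2, was at 3.89 ± 0.22 in knock-out MEFs, against 3.56 ± 0.19 in wild-type MEFs (SD, n = 5 per genotype), a difference of 0.33 (limma adjusted p = 0.821). The collagenase gene Mmp1b, with means of 1.77 on knock-out arrays and 1.88 on wild-type arrays, far below the median of all genes, differed by -0.11, and the urokinase gene Plau by 0.19.

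Early genes induced beside Fos and Jun gave 13 measured of 13, with 4 higher, 9 lower and a median of -0.083. Nr4a1 was at 7.98 ± 0.28 in knock-out MEFs, against 8.27 ± 0.15 in wild-type MEFs (SD, n = 5 per genotype), a difference of -0.30 (limma adjusted p = 0.821). Ier2 differed by -0.24, Myc, the growth regulator, by -0.21 and Btg2, an antiproliferative p53 target, by 0.16.

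**Figure D4:**
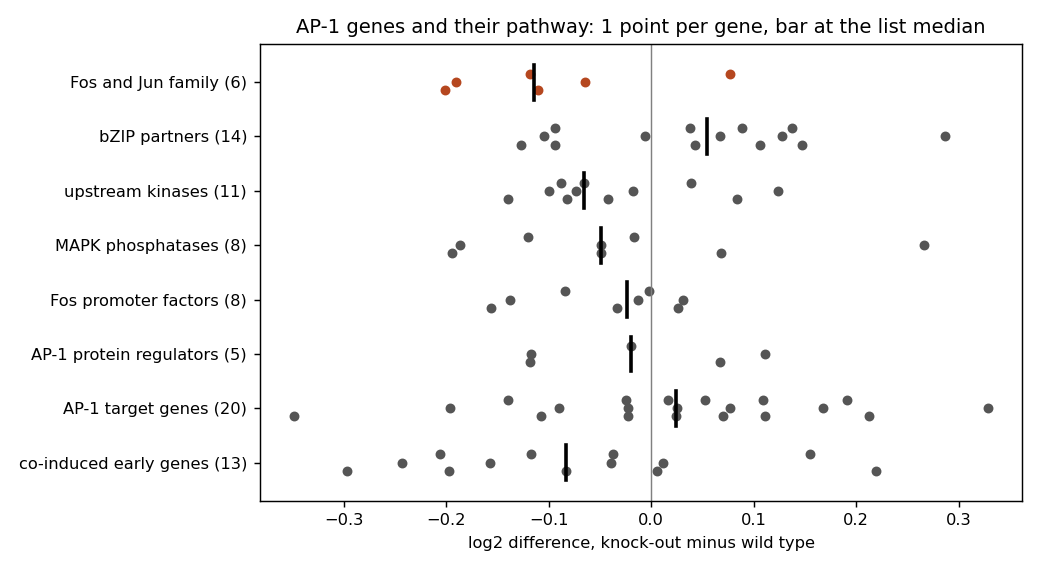
Log2 difference, knock-out minus wild type (x axis), of 6 AP-1 genes (orange) and 79 genes of 7 pathway lists (grey), 1 point per gene, with the number measured in brackets and a black bar at each list's median. Points of every list lie on both sides of 0, and no gene passed the adjusted threshold, which 0% of all genes passed.

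Fibroblast markers were bright, and some markers of other cells also had means above the median of all genes. All 12 fibroblast markers, among them Vim, Fn1 and Col1a2, had means above the median of all genes, while all 3 measured epithelial markers, 5 of 6 endothelial markers and 3 of 4 skeletal muscle markers had means below it. Of 10 macrophage markers 3 lay below it (Ptprc, Adgre1 and Itgam) and 7 above, Fcer1g and Tyrobp among them. The knock-out mean was the higher one for 9, with 0 passing, against 11238 of all 22180 genes. The mean deviation of these markers was 0.068 over the knock-out arrays, with 0.77 on array 3 and -0.53 on array 5. Single markers differed more than any AP-1 gene, among them the fibroblast markers Pdgfra (-0.35) and Twist2 (-0.33). Fibroblast markers went both ways: 8 of the 12 had the lower mean in knock-out MEFs and 4 the higher, up to 0.10 for Fn1. The median over these 12 differences was -0.045. Cdh5, the endothelial cadherin gene, averaged 3.56 ± 0.22 in knock-out MEFs, against 2.95 ± 0.13 in wild-type MEFs (SD, n = 5 per genotype). It showed no overlap (limma adjusted p = 0.628), as did 0.987% of all genes, and lay below the median of all genes on all 10 arrays. The other endothelial markers ran from -0.19 (Kdr) to 0.13 (Tek). The skeletal actin gene Acta1 differed by 0.66 with overlap (limma adjusted p = 0.821), and the other skeletal muscle markers by -0.022 (Myog) to 0.11 (Myod1). Of 9 mitotic genes all had a lower mean in knock-out cells, with 0 passing, against 49.3% of all genes with a lower mean. The mean deviation of these mitotic genes was -0.11 ± 0.24 in knock-out MEFs, against 0.11 ± 0.17 in wild-type MEFs (SD, n = 5 per genotype). It was lowest on knock-out array 4 and overlapped between genotypes. Whether these markers bear on the AP-1 values was not tested.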

How the data were processed

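Total RNA was labelled with biotin and hybridised to Affymetrix arrays, per the labels' protocols. The authors' deposited values are probe set summaries taken as log2 from their range, with array medians from 3.89 to 3.93. Summarisation, background correction and normalization are not given in the sources used here, so that a shift in total RNA content could have been levelled out. The number of arrays limits the precision, with a median standard error of a log2 difference of 0.101.

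Of 41345 probe sets, 23521 had 1 gene symbol in the platform annotation, 1814 several and 16010 none, and 22180 genes remained. Levels of different probe sets were ranked to choose 1 per gene and to place genes against the median of all genes, without a test. Genotypes were compared with lmFit and eBayes in limma 3.58.1 (R 4.3.3) over all genes, with Benjamini-Hochberg adjustment and a threshold of 0.05, and by exact two-sided permutation over 252 splits of the arrays. Correlations used 100000 resamples. The fit was run on simulated data with added differences larger than those of the AP-1 genes, as a check of the code only. AP-1 genes and gene lists were chosen with earlier results of these data known. Named genes were Zbtb4, the AP-1 genes, up to 4 genes of each pathway list by smallest p, and for each AP-1 gene the 3 with the highest r over arrays. Genes without a probe set of 1 symbol are not analysed here. Alternatives were quantile normalization, median centring, leaving out the dimmest 40% of genes, averaging probe sets, eBayes with trend and robust, weights per array, a replicate block, a covariate from 3 Y-linked genes, a threshold of 0.1, and leaving out each array.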

Additional observations from a re-analysis of the deposited data

Results flagged for a closer look

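Fos on knock-out array 1, at a log2 value of 4.97, stood far above the other knock-out arrays, which ran from 4.02 to 4.28; the gap was 0.732 of the range within the genotype. Plau on knock-out array 3, at 8.26, stood below the other knock-out arrays, which ran from 8.67 to 8.80, with a gap of 0.763 of the range. The limit for 5 arrays is 0.71. Chance passes it in about 1 of 20 groups, and 2 of the 70 groups examined passed it.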

How the results depend on the processing

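No AP-1 gene passed the threshold under any of 19 alternatives, the threshold of 0.1 included. Over 108 alternative values of the 6 AP-1 differences, 107 kept their direction and stayed above the threshold, with a smallest adjusted p of 0.589. The exception was Junb, at 0.026 without knock-out array 5. With single arrays left out, the log2 difference ran from -0.37 to -0.12 for Fos, -0.21 to -0.034 for Fosb, 0.038 to 0.14 for Fosl2, -0.24 to -0.12 for Jun, -0.11 to 0.026 for Junb, -0.14 to -0.075 for Jund and -0.70 to -0.52 for Zbtb4. Averaging both probe sets brought Jund to -0.044. With single arrays left out, the list medians ran from 0.011 to 0.062 for the bZIP partners, -0.064 to -0.014 for the upstream kinases, -0.12 to -0.0040 for the MAPK phosphatases, -0.061 to 0.0062 for the Fos promoter factors, -0.047 to 0.0002 for the AP-1 protein regulators, 0.0070 to 0.062 for the AP-1 targets and -0.12 to -0.024 for the early genes.

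A replicate block cannot move the differences in this balanced design; it brought the limma p of Fos to 0.0995 (adjusted p = 0.850), against 0.267 without the block, and called 0 AP-1 genes and 0 genes overall. Same-numbered arrays deviated together with r over 0.1 in 1 of 5 pairs only, and 2 of the 5 knock-out arrays correlated best with the wild-type array of their own number, while Y-linked genes were high on arrays 1 and 3 and low on arrays 2, 4 and 5 of both genotypes. The labels do not say what a number marks, so the arrays were not treated as pairs. Over all settings the most genes called was 1, without wild-type array 5.

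Among correlations, none of which passed, some changed sign. Without the 2 farthest arrays r was -0.25 for Fos with Fosl2, -0.027 for Fosl2 with Jun, 0.25 for Fosl2 with Junb and -0.21 for Jun with Jund. For deviations from genotype means it was -0.024 for Fosb with Jun. With the further Jund probe set, chosen after seeing the data, r was 0.32 for Junb with Jund. The cause of these changes was not tested. With no background level given, how far Fos, Il6, Mmp10, Mmp1b, Mapk10, Batf, Batf3 and Cdh5, near or below the median of all genes, stood above background is not known.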
